A study of Mus musculus with 36 samples.

Results

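The 10 genes of fatty acid uptake and intracellular fatty acid binding followed here in mouse liver were Cd36, Vldlr, Slc27a1, Slc27a2, Slc27a4, Slc27a5, Fabp1, Fabp2, Fabp4 and Fabp5. They were taken as the probes, other than controls, whose gene name on the array equals one of these symbols. This gave 13 probes for 10 of the 37325 genes on the array, and all 10 were among the 24251 genes kept by a filter on dim signal, which asked for a spot well above background on 5 or 6 arrays of some group. The other 7 had 1 probe each, whereas Fabp4, Slc27a4 and Vldlr had 2.

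The RNA came from livers of 36 male C57Bl/6J mice, hybridised in 1 colour to 36 arrays, and 6 groups of 6 mice combine 2 genotypes with 3 conditions. AAKO mice lack ATGL, the lipase that starts triglyceride breakdown, in white adipose tissue, and CTRL mice are their controls. Mice were fed freely, fasted for 24 h, or fed and gavaged with CL316243, a beta 3 adrenergic agonist, at 3 mg/kg and Zeitgeber time (ZT) 10. All were killed at ZT 16 on the same diet and light cycle. The driver of the deletion, the kind of control and the ages of the mice are not given in the sources used here. Experiment 2 in the labels holds the fed groups and experiment 1 the other 4 groups, so in a comparison with fed mice the condition cannot be told apart from the experiment. A gavage is described for CL316243 only, and its part in any difference from those mice cannot be told apart from that of the drug.

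Long-chain fatty acids reach the hepatocyte bound to albumin or inside lipoproteins. CD36 binds them at the cell surface, the VLDL receptor takes up triglyceride-rich lipoproteins, and the fatty acid transport proteins of the SLC27 family (FATPs) couple uptake to activation with coenzyme A. Inside the cell the fatty acid binding proteins (FABPs) carry the lipid to mitochondria, peroxisomes, the endoplasmic reticulum and the nucleus. FABP1 is the abundant form of the hepatocyte, FABP2 that of the enterocyte, FABP4 that of adipocytes, macrophages and some endothelium, and FABP5 the epidermal form. Several of these genes are known targets of PPARα, a nuclear receptor activated by fatty acids in the fasted liver.

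Each value is the log2 signal minus that of the array's 75th percentile, so 0 is the brightness of that percentile; levels of different genes are not compared because probes differ in brightness. Between 33128 and 37200 probes were well above background on each array. The brighter or sole probe of every member was well above background on all 36 arrays, and no member value was missing. All 8 hepatocyte markers were well above background on every array, whereas 5 of 8 enterocyte markers (Lct, Alpi, Slc5a1, Cdx2 and Krt20) were above it on none. The arrays that stood apart were 2. CTRL fasted replicate 2 had the lowest correlation with the mean of its group (r = 0.42 over genes, after the mean of all arrays was subtracted). AAKO CL316243 replicate 6 had a summed muscle marker level of 151, in linear units of the 75th percentile, against 0.535 to 0.943 on all other arrays.

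Promoters of 7 of the 10 members were in the RefSeq table used here (GRCm38.p6, from 250 bases before to 50 after each start); Fabp4, Fabp5 and Slc27a5 were not. They were searched on both strands for AGGTCA, the core motif of PPARs and other nuclear receptors, and for DR1, that motif repeated in the same direction with 1 base between. DR1 was searched in a strict form and in a looser form with any base at position 4 of each copy, so a DR1 can overlap a single motif. The stretches below are shown because Fabp1, Fabp2 and Slc27a2 are the members with a promoter in the table that were lower in fasted AAKO liver. Matches are in capitals, and a match on the minus strand reads TGACCT here. For Fabp1 (chr6:71199729-71199878, plus strand) and Fabp2 (chr3:122894922-122895071, plus strand) the 150 bases before the start are given, and for Slc27a2 (chr2:126552774-126552833, plus strand) the first 60 bases of the table's window, from -250 on.
Fabp1: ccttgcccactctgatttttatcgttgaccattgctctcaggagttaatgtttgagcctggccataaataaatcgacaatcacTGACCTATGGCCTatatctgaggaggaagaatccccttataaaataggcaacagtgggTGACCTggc
Fabp2: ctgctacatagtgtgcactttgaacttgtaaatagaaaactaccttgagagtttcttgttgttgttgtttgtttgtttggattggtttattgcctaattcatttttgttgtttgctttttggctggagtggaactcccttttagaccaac
Slc27a2: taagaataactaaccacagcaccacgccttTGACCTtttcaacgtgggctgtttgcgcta
The Fabp1 stretch held a looser DR1 on the minus strand from -67 to -55, of which -67 to -62 is an AGGTCA motif, and a further motif from -9 to -4. Slc27a2 had the motif from -220 to -215, and Cd36, not shown, had one from -228 to -223. None was found in the printed Fabp2 stretch or elsewhere in the promoters of Fabp2, Slc27a1, Slc27a4 and Vldlr. Over all 32851 promoters of the table, 16.3% held the motif, 0.381% the looser DR1 and 0.0396% the strict one. A match describes letters only, and what binds there was not tested.

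The genotype comparison asks how these genes in the liver differ when adipocytes lack the lipase. In fasted mice, 6 of 10 members differed between AAKO and CTRL: Fabp1, Fabp2, Slc27a2 and Slc27a5 were lower in AAKO, and Fabp4 and Fabp5 were higher. After CL316243, 3 of 10 differed, with Fabp2 and Slc27a2 lower and Fabp5 higher. In fed mice 0 of 10 passed, with 2 (Fabp2 and Fabp5) at an unadjusted p under 0.05. Calls are at a limma adjusted p under 0.05 over all 24251 genes. Over all genes, 49.2% were called in fasted mice (22.0% higher and 27.2% lower in AAKO), 24.5% after CL316243 (12.9% higher and 11.6% lower) and 0.0783% in fed mice. The shares of members called are thus not far from those of all genes. The median log2 fold change of the members was -0.22 in fasted mice and -0.15 after CL316243, against -0.027 and 0.026 over all genes.

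**Figure D1:**
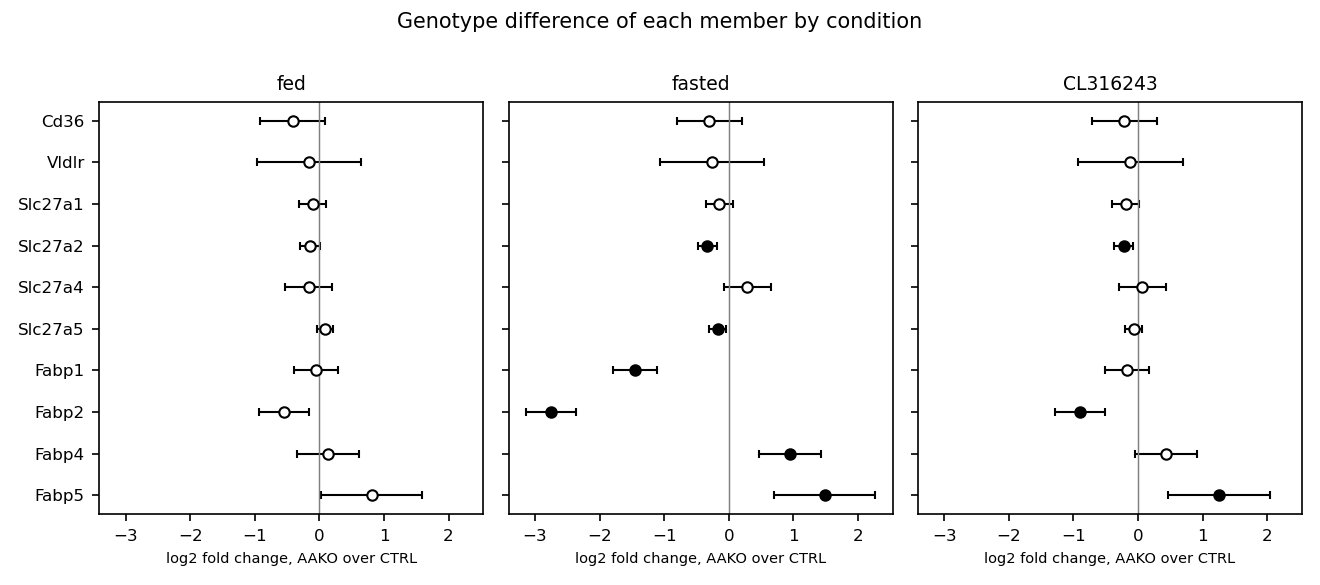
Log2 fold change of AAKO over CTRL for each member in fed, fasted and CL316243-treated mice, with 95% confidence intervals from the limma fit; filled points passed an adjusted p under 0.05. The largest fasted differences are those of Fabp2 at -2.75 and Fabp5 at 1.49, and no fed point is filled.

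Fabp2, the intestinal form, had the widest genotype difference among the members (probe on chromosome 3, 122602276 to 122602335, mm9). In fasted CTRL livers it ran from 5.87 to 6.84 with a median of 6.49, and in fasted AAKO livers from 2.97 to 4.19 with a median of 3.65. No AAKO array reached the lowest CTRL array. The difference was 6.72-fold (log2 fold change -2.75 ± 0.19, SE; adjusted p = 6.32e-13), and it was -2.77 and -2.72 within wash batches 1 and 2. After CL316243 the CTRL arrays ran from 5.24 to 6.12 (median 5.98) and the AAKO arrays from 4.56 to 5.15 (median 4.97), again without overlap. That difference was 1.86-fold (-0.89 ± 0.19, adjusted p = 0.000701). It was -0.90 and -0.82 within the wash batches, where adjusted p was 0.0518 and 0.0851. In fed mice the ranges of 5.37 to 5.91 in CTRL and 4.29 to 5.41 in AAKO overlapped, and the difference of -0.55 ± 0.19 did not pass (adjusted p = 0.494).

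The direction of the fasting difference in Fabp2 was opposite in the genotypes. Against fed mice, Fabp2 rose 1.75-fold in fasted CTRL livers (0.80 ± 0.19, adjusted p = 0.000846) and fell 2.63-fold in fasted AAKO livers (-1.40 ± 0.19, adjusted p = 1.29e-07). The interaction of genotype with fasting was -2.20 ± 0.27 (adjusted p = 2.21e-07), and the genotype difference was also wider in fasted than in CL316243-treated mice (-1.85 ± 0.27, adjusted p = 3.98e-06). By group mean the order ran from CTRL fasted (6.38 ± 0.38, SD, n = 6) through CTRL CL316243 (5.80 ± 0.35) and CTRL fed (5.58 ± 0.19) to AAKO fed (5.03 ± 0.40), AAKO CL316243 (4.93 ± 0.22) and AAKO fasted (3.64 ± 0.42). CTRL CL316243 and CTRL fed did not differ beyond their spread, nor did AAKO fed and AAKO CL316243. Of the 8 enterocyte markers, 5 were above background on no array, and Muc2, Sis and Vil1 were above it on 12, 11 and 9 of 36. Muc2 was higher in fasted than in fed livers (2.41 in CTRL and 2.58 in AAKO, adjusted p = 2.13e-06 and 2.44e-07). No enterocyte marker was called between fasted genotypes (0 of the 2 tested, Muc2 0.26 and Sis -0.44), and the part of intestinal RNA in Fabp2 was not tested.

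Fabp1, the major binding protein of the hepatocyte, was lower in AAKO livers after the fast (chromosome 6, 71154906 to 71154965, mm9). Fasted CTRL arrays ran from 9.27 to 9.90 (median 9.80) and fasted AAKO arrays from 7.48 to 8.95 (median 8.44), with no overlap. The difference was 2.74-fold (-1.45 ± 0.17, adjusted p = 1.44e-08). It was -1.99 within wash batch 1 and -0.91 within wash batch 2, called in both. Of 8 hepatocyte markers, 2 were higher and 5 lower in fasted AAKO livers, where 22.0% of all genes were called higher and 27.2% lower. The summed level of these markers ran from 5280 to 5780 in CTRL and 5180 to 5570 in AAKO. The part of hepatocyte markers in the Fabp1 and Fabp2 differences was not tested. The fasted AAKO group was uneven and sorted by wash batch. Replicates 2, 3 and 6, in batch 1, were at 7.49, 7.48 and 8.43. Replicates 1, 4 and 5, in batch 2, were at 8.46, 8.80 and 8.95. In this group Cd36, Fabp4, Fabp5 and Slc27a5 were also lower in batch 1 without overlap. The other members overlapped between the batches on their brighter or sole probes. The fit has a wash batch term common to all groups, and a batch effect particular to this group was not tested. In the other groups Fabp1 was nearly level: the fed arrays lay between 9.85 and 10.23 and the CL316243 arrays between 9.95 and 10.41.

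The fasting difference of Fabp1 depended on genotype. In AAKO livers Fabp1 fell 3.37-fold from the fed to the fasted group (-1.75 ± 0.17, adjusted p = 8.84e-11). In CTRL livers the difference was -0.36 ± 0.17 and did not pass (adjusted p = 0.0816), although the fasted and fed ranges did not overlap; it passed with median scaling (-0.42, adjusted p = 0.0336) and with only the fasted and fed CTRL arrays in the fit (-0.36, adjusted p = 0.0136). Without CTRL fasted replicate 2, the lowest array of its group, it was -0.26. The interaction was -1.39 ± 0.24 (adjusted p = 2.69e-05), and the genotype difference in fasted mice exceeded that after CL316243 by -1.28 ± 0.24 (adjusted p = 9.35e-05). After CL316243 and in fed mice the genotype differences of -0.17 ± 0.17 and -0.06 ± 0.17 did not pass, with 95% confidence intervals of -0.514 to 0.169 and -0.399 to 0.281.

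**Figure D2:**
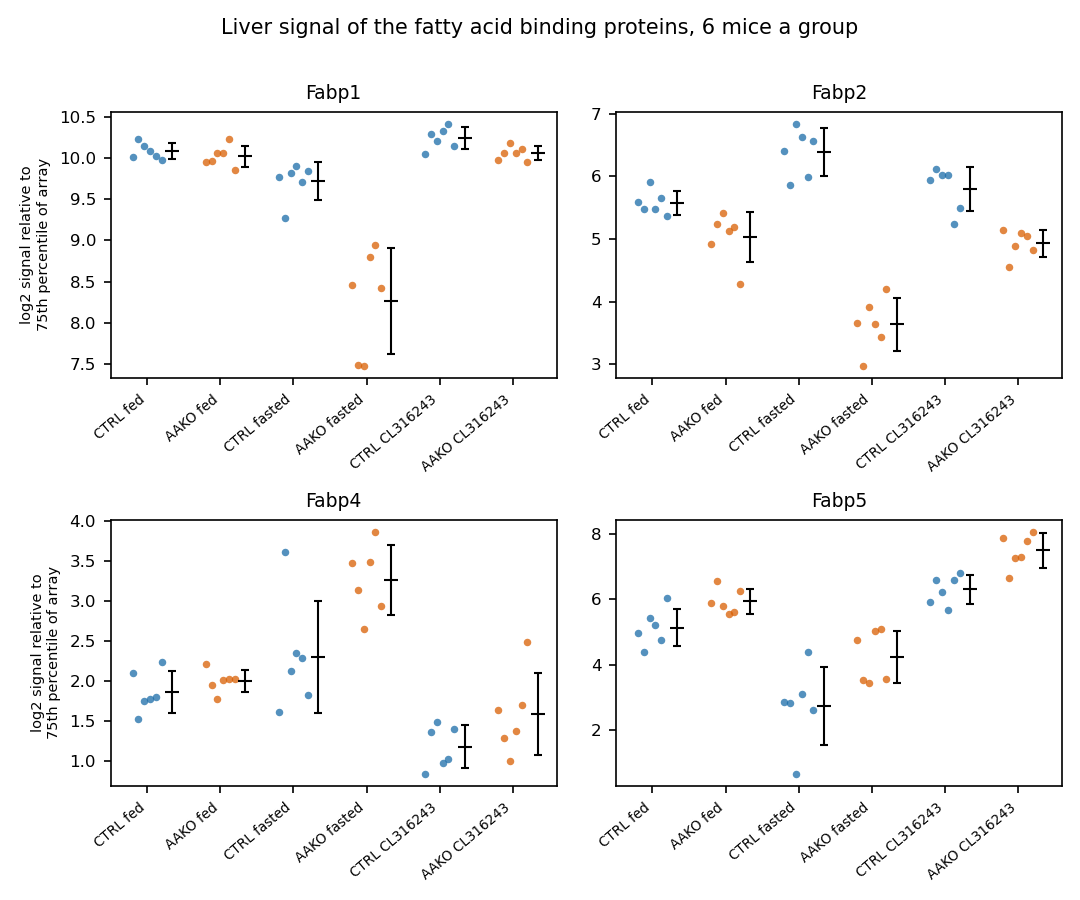
Log2 signal of the 4 fatty acid binding protein genes on each array, blue for CTRL and orange for AAKO, with points in the order of replicates 1 to 6 and group mean ± SD in black. Fabp1 and Fabp2 separate the genotypes without overlap in fasted mice, and Fabp5 is lowest in the fasted groups and highest after CL316243.

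Fabp5, the epidermal form, differed more between fasted and other livers than between the genotypes (chromosome 3, 10016185 to 10016244, mm9). Its median was 5.09 in fed CTRL, 2.85 in fasted CTRL and 6.42 in CL316243-treated CTRL livers, and 5.83, 4.16 and 7.55 in the matching AAKO groups. Against fed mice it fell 5.24-fold in fasted CTRL (-2.39 ± 0.38, adjusted p = 5.44e-06) and 3.27-fold in fasted AAKO livers (-1.71 ± 0.38, adjusted p = 0.000245). Within experiment 1, fasted livers lay 11.8-fold below CL316243-treated livers in CTRL (-3.56 ± 0.38, adjusted p = 1.02e-08) and also below them in AAKO (-3.33 ± 0.38, adjusted p = 6.75e-09). In all 4 of these comparisons the groups did not overlap. The fasted and fed CTRL groups nearly met, with the highest fasted array at 4.385 and the lowest fed array at 4.387.

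Fabp5 was higher in AAKO than in CTRL by 1.49 ± 0.38 in fasted mice (2.80-fold, adjusted p = 0.00164) and by 1.25 ± 0.39 after CL316243 (2.38-fold, adjusted p = 0.0158). The ranges overlapped in both: fasted arrays ran from 0.66 to 4.38 in CTRL and 3.43 to 5.08 in AAKO, and CL316243 arrays from 5.67 to 6.81 in CTRL and 6.66 to 8.07 in AAKO. The fasted CTRL group had an SD of 1.20, the widest on the brighter or sole probes after that of Vldlr in CL316243-treated AAKO livers (1.34), with replicate 3 at 0.66 and replicate 5 at 4.38. The fed difference of 0.81 ± 0.38 did not pass (adjusted p = 0.728), nor did the interaction with fasting (0.68 ± 0.54, adjusted p = 0.36). The fasted difference was 0.95 within wash batch 1, where it was not called, and 2.03 within wash batch 2. Fasted AAKO arrays ran from 3.43 to 3.56 in batch 1 and from 4.76 to 5.08 in batch 2. The difference after CL316243 was 1.31 and 0.96 within the batches and called in neither.

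The Fabp5 signal was closely followed by that of unnamed probes. The other probe with the closest pattern over the arrays (r = 0.999 over 36 arrays, which share the 6 groups) carries no gene symbol in the files, and it shares a run of 50 of its 60 bases with the Fabp5 probe. A second unnamed probe had the same r but a longest shared run of 8 bases. Whether these probes read Fabp5 RNA or other transcripts, and how much any other transcript adds to the Fabp5 signal, was not tested.

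Fabp4, the adipocyte and macrophage form, was higher in fasted AAKO livers. On its brighter probe (chromosome 3, 10204452 to 10204511, mm9) fasted CTRL arrays ran from 1.62 to 3.61 (median 2.21) and fasted AAKO arrays from 2.65 to 3.86 (median 3.31). Only CTRL fasted replicate 2, at 3.61, lay inside the AAKO range. The difference was 1.94-fold (0.96 ± 0.24, adjusted p = 0.00105), and 1.20 without that array. The dimmer probe (10208442 to 10208501) gave 1.07 ± 0.29 (adjusted p = 0.00249). After CL316243 the difference of 0.44 ± 0.24 did not pass (adjusted p = 0.187), and in fed mice it was 0.14 ± 0.24 (adjusted p = 0.944).

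Fabp4 was lower after CL316243 than after fasting in both genotypes, by 2.17-fold in CTRL (fasted over CL316243, 1.12 ± 0.24, adjusted p = 0.000289) and 3.11-fold in AAKO (1.64 ± 0.24, adjusted p = 4.26e-07). From fed to fasted it rose 2.39-fold in AAKO livers (1.26 ± 0.24, adjusted p = 2.29e-05), without overlap. In CTRL livers that difference was 0.44 ± 0.24 and did not pass (adjusted p = 0.135), but it did without CTRL fasted replicate 1 (0.60). The interaction of 0.82 ± 0.33 did not pass (adjusted p = 0.0561). It passed with median scaling (0.89, adjusted p = 0.0364), with normexp correction (0.81, adjusted p = 0.0394), with only fasted and fed arrays in the fit (adjusted p = 0.041) and in the authors' deposited value table (0.81, adjusted p = 0.0492). It also passed without CTRL fasted replicate 2 (1.07, adjusted p = 0.00284) or AAKO fasted replicate 3 (0.92, adjusted p = 0.0337). Without CTRL fasted replicate 2 the genotype difference was also wider after fasting than after CL316243 (0.78, adjusted p = 0.0291), against 0.52 ± 0.33 with it.

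Markers of cells other than hepatocytes did not all go the way of Fabp4. In fasted livers the summed level of 8 endothelial markers ran from 30.3 to 64.6 in CTRL and 52.1 to 66.4 in AAKO, with 3 of 8 higher in AAKO and 0 lower. That of 8 macrophage markers ran from 26.5 to 75.3 and from 19.1 to 87, with 1 of 8 higher. That of 8 neutrophil markers ran from 3.47 to 83.2 and from 11.6 to 129, with 5 of 8 higher. Over all genes, 22.0% were called higher and 27.2% lower in fasted AAKO livers. CTRL fasted replicate 2 had the highest value of its group for all 3 lists (64.6, 75.3 and 83.2). The sum of the 8 adipocyte markers ran from 3.71 to 4.98 (median 4.37) in CTRL and from 3.36 to 4.44 (median 3.83) in AAKO. Of these, Plin1 (0.94, adjusted p = 8.93e-05) and Slc2a4 (1.515, adjusted p = 0.0278) were higher in AAKO, and Adipoq, above background on 21 of 36 arrays, was lower (-1.03, adjusted p = 0.0118). In bulk liver, fewer cells of a type and less RNA per cell cannot be told apart. Across conditions the median endothelial sum was 63.1 in fed, 45.2 in fasted and 33.8 in CL316243-treated CTRL livers, and 65.2, 59.9 and 40.9 in the matching AAKO groups. In CTRL the fed range (48.9 to 71.7) and the CL316243 range (25 to 47) did not overlap. The median macrophage sum was 69.2, 36.7 and 39.8 in CTRL and 88.2, 60.5 and 39.2 in AAKO. The part of these cells in the genotype or condition differences of Fabp4 and Cd36 was not tested.

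Of the fatty acid transport proteins, Slc27a2 (FATP2, a transporter and very-long-chain acyl-CoA synthetase; chromosome 2, 126413890 to 126413949, mm9) was lower in AAKO livers in both stimulated conditions. Fasted CTRL arrays ran from 8.78 to 9.12 (median 9.06) and fasted AAKO arrays from 8.58 to 8.84 (median 8.65). The ranges overlapped only between CTRL replicate 5 (8.78) and AAKO replicate 6 (8.84). The difference was 1.26-fold (-0.33 ± 0.07, adjusted p = 0.000349), and it was -0.18 within wash batch 1, not called, and -0.48 within wash batch 2. After CL316243 it was 1.16-fold (-0.22 ± 0.07, adjusted p = 0.0265), with ranges of 8.46 to 8.73 in CTRL and 8.16 to 8.47 in AAKO that overlapped. Leaving out any of 4 arrays ended that call: AAKO CL316243 replicate 4 (-0.20), AAKO CL316243 replicate 6 (-0.18), CTRL CL316243 replicate 2 (-0.18) and CTRL CL316243 replicate 5 (-0.20). It was -0.27 and -0.18 within the wash batches, called in neither. The fed difference of -0.14 ± 0.07 did not pass (adjusted p = 0.745).

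Slc27a2 was higher in fasted than in fed livers of both genotypes, 1.58-fold in CTRL (0.66 ± 0.07, adjusted p = 7.8e-09) and 1.39-fold in AAKO (0.48 ± 0.07, adjusted p = 9.21e-07), without overlap. The interaction of -0.18 ± 0.10 did not pass (adjusted p = 0.173). Fasted livers also exceeded CL316243-treated livers, by 0.44 ± 0.07 in CTRL and 0.33 ± 0.07 in AAKO, again without overlap. By group mean, CTRL fasted was highest, followed by AAKO fasted (8.67 ± 0.10, SD, n = 6) and CTRL CL316243 (8.56 ± 0.11), whose ranges overlapped. AAKO CL316243 (8.34 ± 0.11) and CTRL fed (8.33 ± 0.08) lay within their spread of each other, and AAKO fed was lowest (8.19 ± 0.14).

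Slc27a5 (FATP5, the bile acid-CoA ligase of the liver; chromosome 7, 13573701 to 13573760, mm9) varied over the narrowest range of the members, with all arrays between 8.65 and 9.18. It was lower in fasted AAKO than in fasted CTRL livers by 1.13-fold (-0.17 ± 0.06, adjusted p = 0.0226). The AAKO arrays ran from 8.65 to 8.88 and the CTRL arrays from 8.81 to 9.03, with overlap. This small difference lost its call without AAKO fasted replicate 3 (-0.155) or 6 (-0.15), without CTRL fasted replicate 1 or 3 (-0.15 each), and within wash batch 1 (-0.24) or 2 (-0.11). Slc27a5 fell from fed to fasted in AAKO livers (-0.32 ± 0.06, adjusted p = 4.83e-05, no overlap) and from fed to CL316243 (-0.23 ± 0.06, adjusted p = 0.00564, no overlap). The interaction with fasting was -0.26 ± 0.09 (adjusted p = 0.0226), and it was -0.30 and -0.21 within the wash batches, called in neither. With arrays scaled to their median, the fasted genotype difference (-0.13) and the interaction (-0.19) did not pass. After CL316243 the genotype difference of -0.07 ± 0.06 did not pass (adjusted p = 0.481), but did with quantile normalization (-0.17) and in the authors' deposited value table (-0.19). In fed mice it was 0.09 ± 0.06 (adjusted p = 0.825).

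Slc27a1 (FATP1, best known from muscle and adipose tissue; chromosome 8, 74110256 to 74110315, mm9) differed between fasted and other livers but not detectably between genotypes. It rose from fed to fasted by 1.32-fold in CTRL (0.40 ± 0.10, adjusted p = 0.0017) and 1.28-fold in AAKO (0.36 ± 0.10, adjusted p = 0.00307, with overlap). Fasted exceeded CL316243-treated livers by 0.54 ± 0.10 in CTRL and 0.58 ± 0.10 in AAKO (adjusted p = 8.33e-05 and 1.23e-05). Fasted CTRL arrays ran from 1.02 to 1.37, above the fed CTRL range of 0.60 to 1.01 and the CL316243 CTRL range of 0.62 to 0.86. The genotype differences were -0.10 ± 0.10 fed, -0.15 ± 0.10 fasted and -0.19 ± 0.10 after CL316243, with 95% confidence intervals of -0.311 to 0.106, -0.358 to 0.06 and -0.4 to 0.02. Without AAKO CL316243 replicate 2 the last was -0.27 and passed.

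The 2 probes of Slc27a4 (FATP4) disagreed. The brighter probe (chromosome 2, 29672983 to 29673042, mm9) gave group means of -0.11 ± 0.42 in fed CTRL, -0.28 ± 0.34 in fed AAKO, 0.27 ± 0.27 in fasted CTRL, 0.56 ± 0.30 in fasted AAKO, -0.33 ± 0.28 in CL316243-treated CTRL and -0.27 ± 0.22 in CL316243-treated AAKO livers. On it Slc27a4 rose from fed to fasted in AAKO livers (0.83 ± 0.18, adjusted p = 0.000136). The CTRL value of 0.38 ± 0.18 did not pass (adjusted p = 0.0847), but did without CTRL fasted replicate 3 (0.48) or CTRL fed replicate 2 (0.54). The genotype difference in fasted mice did not pass (0.29 ± 0.18, adjusted p = 0.186), nor did the interaction with fasting (0.45 ± 0.25, adjusted p = 0.17). The dimmer probe (29672404 to 29672464) was well above background on 5 or 6 arrays of each group. There fasted CTRL arrays ran from -4.08 to -3.28 and fasted AAKO arrays from -5.79 to -4.48, without overlap. Its genotype difference was -1.37 ± 0.21 (adjusted p = 1.89e-06), its fasting difference 0.57 ± 0.21 in CTRL (adjusted p = 0.0268) and, in AAKO, -0.62 ± 0.21 (adjusted p = 0.00967) and its interaction -1.19 ± 0.29 (adjusted p = 0.00195). All but the CTRL value are opposite in sign to the brighter probe. The files do not say which transcripts or parts of an exon the probes read, and which one follows Slc27a4 RNA was not tested. After CL316243 the brighter probe gave a genotype difference of 0.06 ± 0.18 (adjusted p = 0.842) and in fed mice -0.17 ± 0.18 (adjusted p = 0.898).

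**Figure D3:**
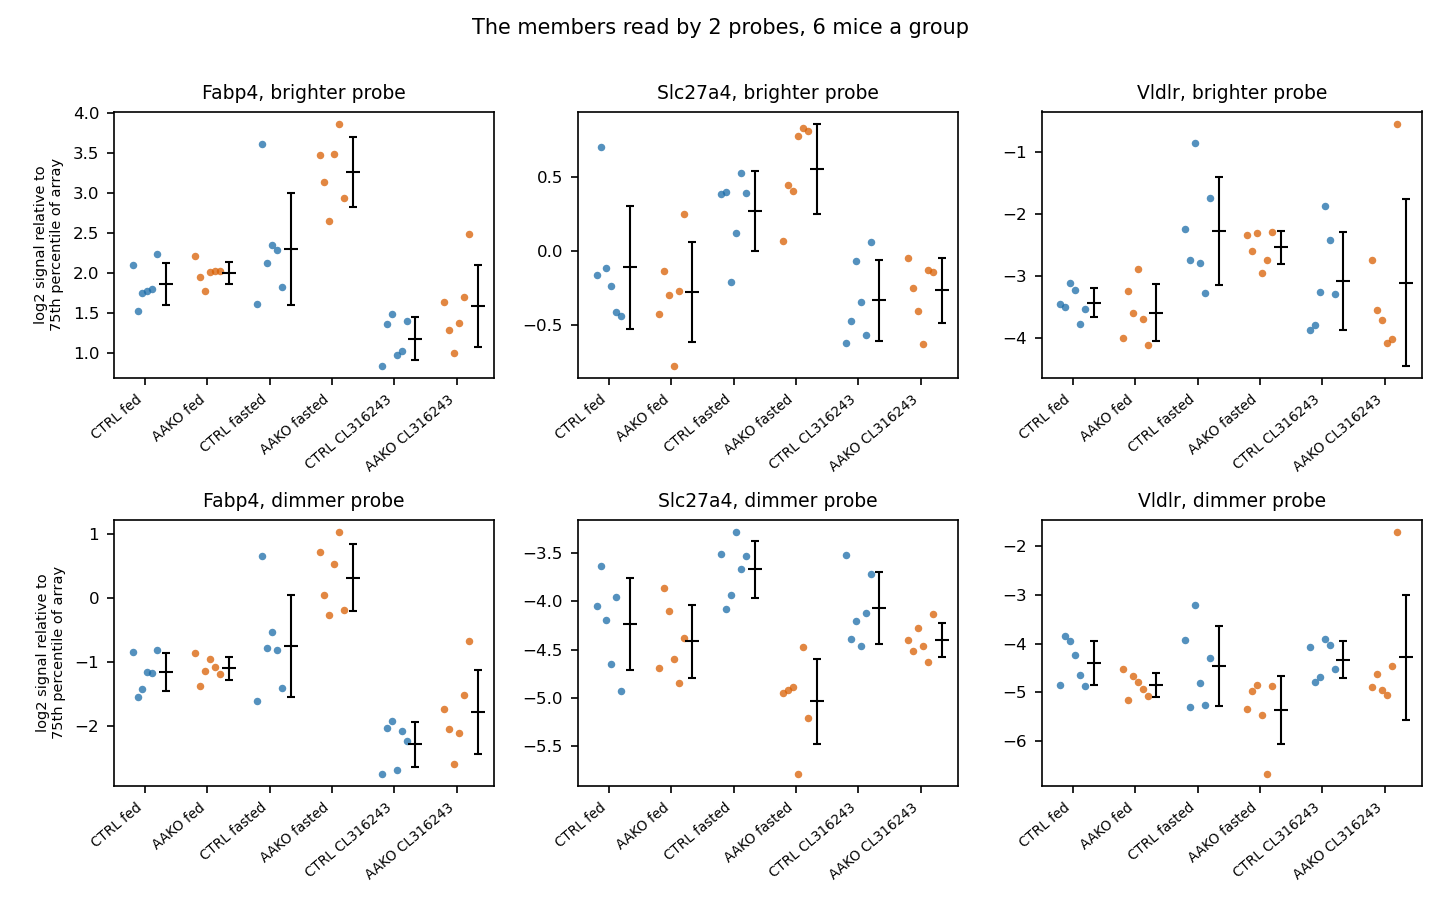
Log2 signal of the brighter (upper row) and dimmer probe (lower row) of Fabp4, Slc27a4 and Vldlr on each array, blue for CTRL and orange for AAKO, with group mean ± SD in black. The probes of Fabp4 follow each other, whereas for Slc27a4 the fasted AAKO over CTRL difference is 0.29 on the brighter and -1.37 on the dimmer probe.

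Cd36, the scavenger receptor that binds fatty acids at the cell surface, did not differ detectably between genotypes (chromosome 5, 17288600 to 17288659, mm9). The differences were -0.41 ± 0.25 fed, -0.30 ± 0.25 fasted and -0.21 ± 0.25 after CL316243, with 95% confidence intervals of -0.915 to 0.089, -0.805 to 0.199 and -0.718 to 0.291. Its condition differences were larger. Fasted livers exceeded CL316243-treated livers by 2.34-fold in CTRL (1.23 ± 0.25, adjusted p = 0.000168, no overlap) and 2.20-fold in AAKO (1.14 ± 0.25, adjusted p = 0.000191). From fed to fasted Cd36 rose in AAKO livers (0.63 ± 0.25, adjusted p = 0.027), a call lost without AAKO fasted replicate 2 (0.59) or 5 (0.49) or AAKO fed replicate 2 (0.58). The CTRL value of 0.52 ± 0.25 did not pass (adjusted p = 0.0909), but did without CTRL fasted replicate 1 (0.68).

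Vldlr, the lipoprotein receptor, was the member with the most uneven groups. On the brighter probe (chromosome 19, 27324042 to 27324101, mm9) it rose from fed to fasted by 2.22-fold in CTRL (1.15 ± 0.40, adjusted p = 0.0177) and 2.07-fold in AAKO livers (1.05 ± 0.40, adjusted p = 0.0209). With normexp background correction these were 0.42 and 0.24, and with the mean of both probes 0.54 and 0.27; of these values 0.42 passed. The fasted arrays ran from -3.27 to -0.85 in CTRL and -2.94 to -2.28 in AAKO, and the fed arrays from -3.76 to -3.11 and -4.11 to -2.88, so both pairs overlapped. Without CTRL fasted replicate 3, the array at -0.85, the CTRL value was 0.92 and not called. On the dimmer probe (27328369 to 27328428), well above background on 2 to 5 arrays of each group, the fasting differences were -0.07 in CTRL and -0.50 in AAKO. The genotype differences on the brighter probe were -0.16 ± 0.40 fed, -0.26 ± 0.40 fasted and -0.12 ± 0.40 after CL316243, and none passed; on the dimmer probe the fasted difference was -0.90 ± 0.37 and passed (adjusted p = 0.046).

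The array with the muscle markers was the highest of its group for Vldlr, Cd36, Fabp4 and Fabp5, and the lowest for Fabp1, Slc27a2 and Slc27a5. AAKO CL316243 replicate 6 was at -0.54 for Vldlr, where the other 5 arrays ran from -4.07 to -2.74, at -0.16 for Cd36, where they ran from -1.61 to -0.80, and at 2.49 for Fabp4, where they ran from 1.00 to 1.71. For Fabp5 it was at 8.07, where they ran from 6.66 to 7.87, and for Slc27a2 at 8.16, where they ran from 8.25 to 8.47. Without it the genotype difference of Fabp5 after CL316243 was 1.11 and kept its call (adjusted p = 0.0439). Without it the genotype difference after CL316243 was -0.58 for Vldlr, -0.41 for Cd36 and 0.25 for Fabp4, none of which passed. Also without it, Cd36 and Fabp4 were lower in CL316243-treated than in fed AAKO livers (-0.71 and -0.57, adjusted p = 0.0193 and 0.0488), against -0.51 ± 0.25 and -0.38 ± 0.24 with it (adjusted p = 0.118 and 0.237). The array also had the highest summed adipocyte (8.25), endothelial (55.6), macrophage (50.2) and neutrophil (13.3) marker levels of its group, where the other 5 arrays reached at most 3.61, 51, 42.5 and 10.3. The part of RNA from muscle or any of these cells in the values was not tested.

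**Figure D4:**
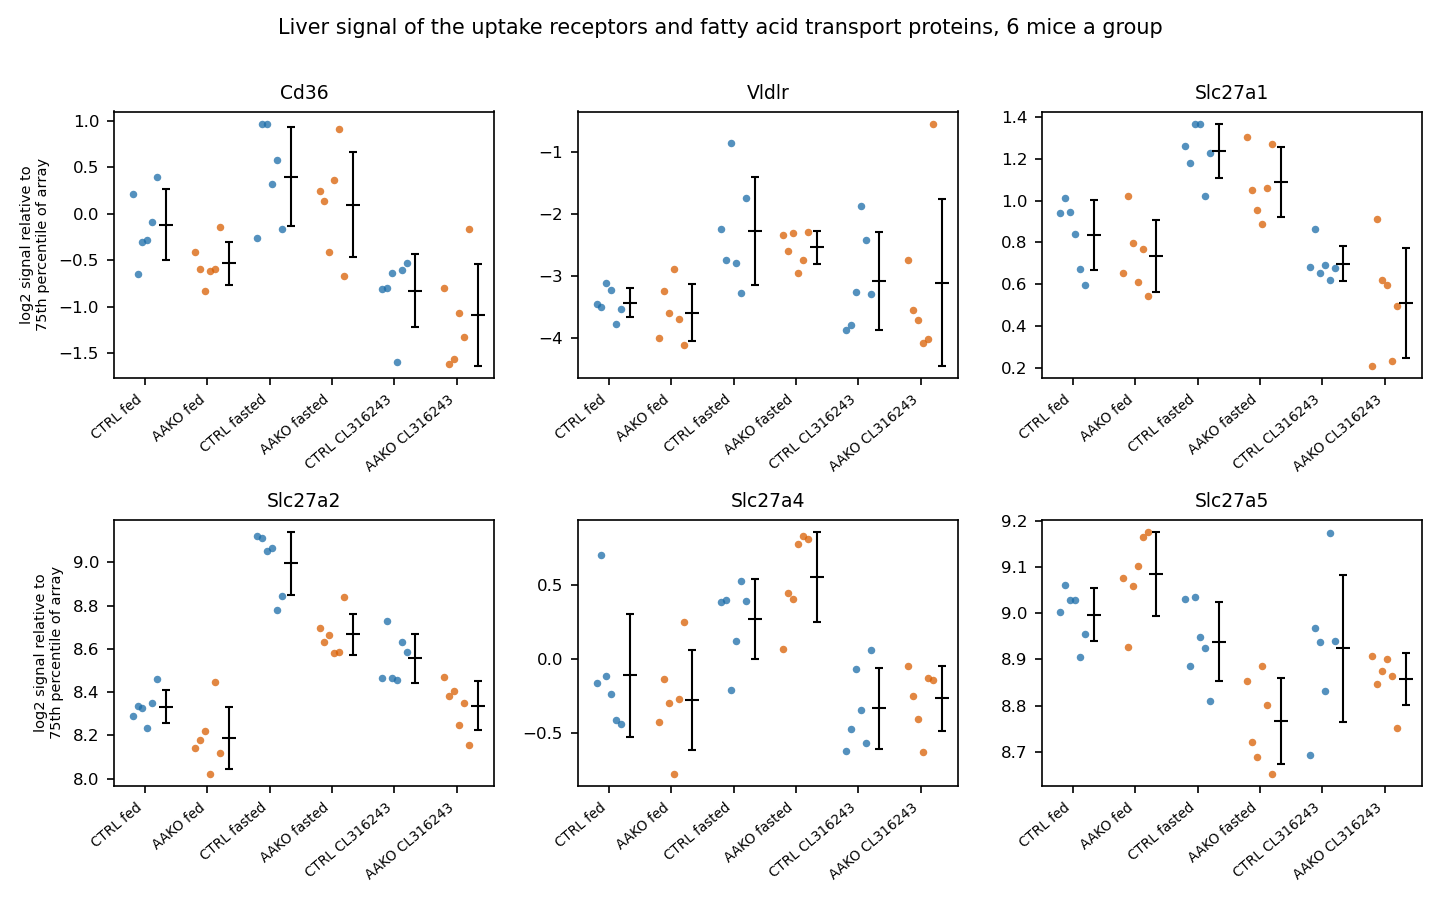
Log2 signal of the uptake receptors Cd36 and Vldlr and of 4 fatty acid transport protein genes on each array, blue for CTRL and orange for AAKO, with group mean ± SD in black. Slc27a1 and Slc27a2 are highest in the fasted groups, and 1 AAKO CL316243 array stands at -0.54 for Vldlr.

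Across conditions within a genotype, Slc27a2 and Slc27a1 were higher and Fabp5 lower in fasted than in fed mice of both genotypes, and Vldlr was higher on its brighter probe only. Of 10 members, each counted on its brighter or sole probe, 5 differed between fasted and fed CTRL livers, against 43.8% of all genes. Between fasted and fed AAKO livers 10 of 10 differed, against 63.6%. Fabp2 was higher in fasted CTRL and lower in fasted AAKO livers. Called in AAKO but not in CTRL were Fabp1 and Slc27a5, which fell, and Fabp4, Cd36 and, on its brighter probe only, Slc27a4, which rose. On its dimmer probe Slc27a4 fell in AAKO. The interaction passed for Fabp1, Fabp2 and Slc27a5, 3 of 10 members against 33.6% of all genes. Between fasted and CL316243-treated mice 8 of 10 members differed in each genotype, against 37.1% of all genes in CTRL and 60.0% in AAKO. In CTRL, Fabp1 (-0.52 ± 0.17) lost its call without CTRL fasted replicate 2 (-0.42), and Fabp2 (0.58 ± 0.19) without CTRL CL316243 replicate 5 (0.45) or CTRL fasted replicate 3 (0.50). Slc27a5 and Vldlr were not called in either genotype, though Vldlr was without CTRL fasted replicate 5 in CTRL (1.07) and without AAKO CL316243 replicate 6 in AAKO (1.13). The genotype difference itself differed between fasted and CL316243-treated mice for 2 of 10, Fabp1 and Fabp2, against 31.8%.

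**Figure D5:**
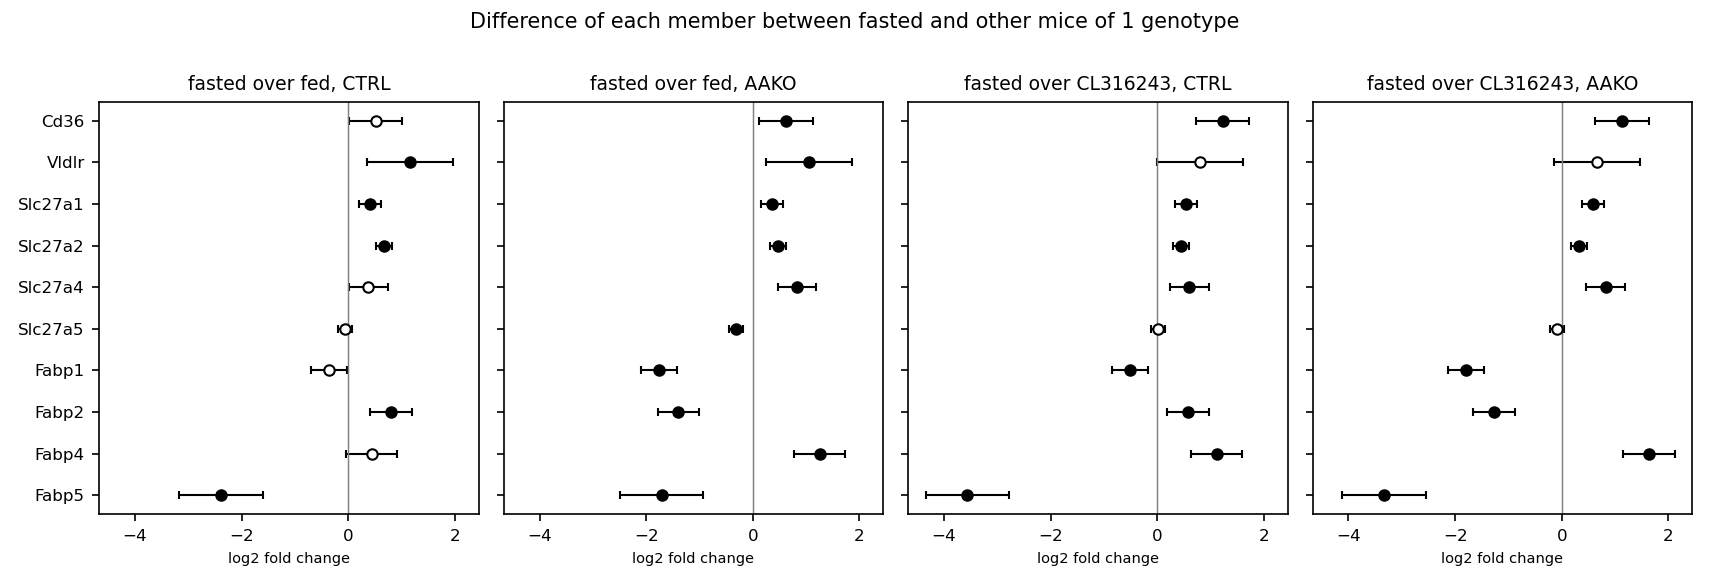
Log2 fold change of fasted over fed and of fasted over CL316243-treated mice for each member in CTRL and AAKO, with 95% confidence intervals from the limma fit; filled points passed an adjusted p under 0.05. Fabp5 is lowest in all 4 panels except fasted over fed in AAKO, where Fabp1 stands at -1.75, and Fabp2 lies above 0 in CTRL and below 0 in AAKO.

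Between CL316243-treated and fed mice, Fabp5 was higher in both genotypes. In CTRL livers 4 of 10 members were called, against 23.1% of all genes: Fabp5 (1.17 ± 0.38, adjusted p = 0.0245) and Slc27a2 (0.22 ± 0.07, adjusted p = 0.025) rose, and Cd36 (-0.71 ± 0.25, adjusted p = 0.0342) and Fabp4 (-0.68 ± 0.24, adjusted p = 0.0336, no overlap) fell. In AAKO livers Fabp5 rose (1.62 ± 0.39, adjusted p = 0.0015, no overlap) and Slc27a5 fell, 2 of 10 against 31.4%. Slc27a2 was at 0.15 ± 0.07 there (adjusted p = 0.129), and passed without AAKO fed replicate 5 (0.20). Slc27a1, at -0.22 ± 0.10, passed without AAKO CL316243 replicate 2 (-0.30). The 4 CTRL calls lay near the limit of adjusted p, and leaving out single arrays ended them, often with little change in the estimate. Each was lost without CTRL fed replicate 1 (Fabp5 1.1, Slc27a2 0.21, Cd36 -0.67, Fabp4 -0.65). Without CTRL fed replicate 4, Slc27a2 (0.20), Cd36 (-0.72) and Fabp4 (-0.68) were lost. Without replicate 3 or 6 of that group, Cd36 (-0.72 and -0.63) and Fabp4 (-0.68 and -0.62) were. Without replicate 2 or 5 Fabp5 was (1.06 and 1.05). Without CTRL CL316243 replicate 1 or 4, Cd36 (-0.69 and -0.58) and Fabp4 (-0.59 and -0.66) were. Without replicate 2 of that group, Fabp5 (1.07) and Slc27a2 (0.19) were, and without replicate 5, Fabp5 (1.07), Fabp4 (-0.67) and Slc27a2 (0.21). No member had an interaction of genotype with CL316243 by limma (0 of 10, also 0 at an unadjusted p under 0.05), against 10.8% of all genes. The comparisons with fed mice share the fed arrays of their genotype.

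Around the members, 29 of 38 genes of 5 lists of related function passed the filter. In fasted mice 5 were higher and 11 lower in AAKO, and after CL316243 3 were higher and 5 lower, against 49.2% and 24.5% of all genes called in either direction. The medians were -0.21 and 0.08, against -0.027 and 0.026 over all genes. Among acyl-CoA and sterol carrier proteins, which shuttle activated fatty acids, 1 of 6 was higher and 4 lower in fasted AAKO livers. Acbd5, a peroxisomal tether that binds acyl-CoA, was 1.48 ± 0.15 lower in fasted AAKO than in fasted CTRL livers (adjusted p = 1.01e-09). Among CL316243-treated mice, Acbd5 was 1.01 ± 0.15 lower in AAKO than in CTRL livers (adjusted p = 5.98e-06). The carrier Acbd3 was higher in AAKO among these mice (0.25 ± 0.08, adjusted p = 0.0304). Among long-chain acyl-CoA synthetases, which trap fatty acids as CoA esters, 1 of 6 was higher and 2 lower in AAKO in both conditions. Acsl4, which prefers arachidonic acid, was 1.41 ± 0.12 higher in AAKO among fasted mice (adjusted p = 8.91e-11). Among CL316243-treated mice it was 0.47 ± 0.12 higher in AAKO (adjusted p = 0.00497). Acsl1, the main liver form, was at -1.64 ± 0.16 in AAKO over CTRL among CL316243-treated mice (adjusted p = 7.16e-09).

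Of 12 genes of lipoprotein-bound lipid uptake, 3 were higher and 3 lower in fasted AAKO livers, and 1 was higher and 2 lower after CL316243. The shares of all genes called in either direction were 49.2% and 24.5%. Gpihbp1, the endothelial anchor of lipoprotein lipase, was higher by 0.70 ± 0.17 (adjusted p = 0.000842) and Scarb1, the HDL receptor, by 0.68 ± 0.09 (adjusted p = 1.01e-07) in fasted mice. Among CL316243-treated mice Lrp8, a relative of Vldlr, was higher in AAKO than in CTRL by 0.37 ± 0.11 (adjusted p = 0.00846). Mfsd2a, a transporter of lysophosphatidylcholine lipids, was lower in AAKO than in CTRL among these mice (-1.33 ± 0.32, adjusted p = 0.00207). It was also the 1 gene of these lists called between genotypes in fed mice, again lower in AAKO (-1.65 ± 0.32, adjusted p = 0.0206), against 0 called higher. The share of all genes called in fed mice was 0.0783%. Of the related families, Slc27a3, the 1 of 2 other SLC27 genes that was kept, was lower in fasted AAKO livers (-1.59 ± 0.21, adjusted p = 1.54e-07), as was 1 of 4 kept genes of the FABP family, the brain form Fabp7 (-1.27 ± 0.35, adjusted p = 0.00274). Fabp3 of that family was not called, at -2.865 ± 0.149 in fasted CTRL and -4.21 ± 0.295 in fasted AAKO livers (SD). Its SD in AAKO CL316243 livers was 2.933, and all groups share the estimate of spread in the fit.

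The genes most like each member over the 36 arrays were listed by Pearson's r. These arrays share 6 groups, so r can follow the group means, or a single array that stands apart, and describes likeness only. The part of AAKO CL316243 replicate 6, the array with the muscle markers, in the r of Vldlr was not tested. For Fabp2 the closest was Eci1 (r = 0.975), an enzyme of unsaturated fatty acid oxidation. For Fabp1 they were Bphl (0.964) and Tmem205 (0.96). For Fabp4 they were Thbd (0.941), the thrombomodulin of endothelium, and Pmp22 (0.936). For Slc27a4 on its brighter probe they were Ccdc77 (0.963) and Mr1 (0.96), and for Slc27a2 Tmem120a (0.923) and Prune (0.918). The others had looser neighbours: Slc27a1 with St3gal5 (0.874) and Sulf2 (0.862), Slc27a5 with Commd3 (0.823) and Tmem59 (0.806), Cd36 with Mamdc2 (0.806) and Fam102b (0.789), and Vldlr with Cpt1b (0.713), a muscle form of carnitine palmitoyltransferase, and Fxyd6 (0.709).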

How the data were processed

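The members and lists were chosen with earlier results of these data known. Per the file headers, spot intensity was made with Agilent Feature Extraction 10.10.1.1, which subtracted background and removed trends within the array, and probe positions are on mm9. The authors also deposited a table of log2 values for 36898 probes, whose normalization is not given in the sources used here; it served as an alternative. Outlier spots were left out (2701, or 0.127%) and none was saturated. Log2 processed intensity was scaled to the 75th percentile of each array, genes were named through RefSeq accessions (GRCm38.p6, names only), and the probe of highest mean stood for its gene. Limma 3.58.1 in R 4.3.3 fitted all 36 arrays with 6 group means and the wash batch (2 batches, each with arrays of all groups), with two-sided tests and Benjamini-Hochberg adjustment over 24251 genes; the fit was tested on simulated data. Errors beside differences are SE, and beside levels SD over 6 mice. The number of arrays limits precision. All members were named with every probe; of the related lists the 3 highest and 3 lowest called genes in fasted and CL316243-treated AAKO livers were named; and so were the 2 genes most like each member, of which 1 is not reported here. Single cell type markers, Mfsd2a in fed mice, and Fabp3 were singled out after their values were seen. Promoters and figures used Python 3, pandas and matplotlib. Alternatives covered background, scaling, filter, batch, probe choice, arrays in the fit and single arrays left out.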

Additional observations from a re-analysis of the deposited data

Results flagged for a closer look

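Of 60 sets of 6 arrays, 1 for each member and group, 5 had an array beyond the 95% limit of Dixon's test; chance alone flags about 1 in 20. CTRL fasted replicate 2, the array least like its group, was one for both Fabp1, lowest at 9.27, and Fabp4, highest at 3.61. The others were Cd36 in CTRL CL316243 replicate 4 (-1.59, lowest), Slc27a1 in CTRL CL316243 replicate 2 (0.86, highest) and Slc27a4 in CTRL fed replicate 2 (0.70, highest).

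Genotype differences that themselves differed between conditions, by the limma interaction, were those of Fabp1 (-1.39), Fabp2 (-2.20) and Slc27a5 (-0.26) between fasted and fed mice, and of Fabp1 (-1.28) and Fabp2 (-1.85) between fasted and CL316243-treated mice.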

How the results depend on the processing

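Counts of members called moved by over 1.5 times mainly within single wash batches, which hold only some of the mice of each group. Of AAKO CL316243, wash batch 2 holds only replicates 3 and 4. For AAKO against CTRL they were 3 within wash batch 1 in fasted mice (6 with all arrays) and 0 within wash batch 1 or 2 after CL316243 (3). For CL316243 against fed they were 0 within batch 2 in AAKO (2), and 0 and 1 within batches 1 and 2 and 2 with no filter in CTRL (4). For fasted against fed CTRL they were 2 within batch 1 (5). The interaction with CL316243 had 1 call, Slc27a5, in the authors' value table and 0 otherwise. With 1 array left out, the CL316243 against fed count ran from 0 to 4 in CTRL and from 2 to 4 in AAKO (4 without AAKO CL316243 replicate 6). The other 6 counts stayed within 1.5 times of the main one under all alternatives run.

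Over all genes, calls between genotypes within wash batches 1 and 2 were 1 and 0 in fed mice (19 with all arrays; 3 with only the fed groups in the fit, and 7 to 33 where leaving out 1 array moved the count that far). After CL316243 they were 2977 and 1510 (5952), and in fasted mice within batch 2 they were 7821 (11922). For the interaction with fasting they were 5101 and 3132 (8160), with CL316243 458 and 480 (2628), and between fasted and CL316243 4744 and 3053 (7718). CL316243 against fed gave 2100 and 1623 (5611) for CTRL livers, and for AAKO livers 4684 and 2287 (7625). Within batch 1, fasted CTRL mice gave 5997 (10620) against fed and 4551 (8989) against CL316243.

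Among called differences the sign turned only on the dimmer probe: Slc27a4 in AAKO, fasted against fed (-0.62) and against CL316243 (-0.65), and Vldlr, fasted against fed, in CTRL (-0.066) and AAKO (-0.50). With the mean of both probes Slc27a4 lost its calls in AAKO, fasted against fed (0.10) and against CL316243 (0.09). The call of Slc27a2 after CL316243 was lost with only the groups compared in the fit (-0.23), and that of Fabp2 in CTRL, fasted against CL316243, with that fit (0.58) and with slide as a fixed factor (0.51). The interaction of Fabp4 with fasting passed with only the groups compared (0.82), normexp (0.81), median scaling (0.89) and the authors' table (0.81). Other signs turned for differences that had not passed. For Slc27a4 the genotype difference became -0.54 in fasted mice with the mean of both probes and -1.37 on the dimmer probe, and -0.13, -0.315 and -0.31 after CL316243 with the mean, the dimmer probe and wash batch 2. Its interaction with fasting became -0.37 with the mean and -1.19 on the dimmer probe, and its fed difference 0.23 within wash batch 2 and from -0.28 to 0.0003 with 1 array left out (0.0003 without CTRL fed replicate 2). Genotype differences after CL316243 became 0.024 for Cd36 within batch 1, and -0.053 for Fabp4 and 0.031 for Slc27a5 within batch 2. For Vldlr they became 0.0735 with normexp, and with 1 array left out ran from -0.58 to 0.097 (0.0045, 0.013 and 0.097 without AAKO CL316243 replicates 2, 4 and 5, and 0.083 without CTRL CL316243 replicate 4). Cd36 became 0.17 in fasted mice within batch 2, Slc27a1 0.004 in fed mice within batch 2, and Fabp1 0.0014 in fed mice with slide as a fixed factor. Causes were not tested.

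Deviations of same-numbered arrays of the genotypes correlated at r from 0.005 to 0.359 in fed mice (mean 0.124, against -0.025 for other numbers), -0.215 to 0.226 in fasted mice (mean 0.059, against -0.013) and -0.076 to 0.098 after CL316243 (mean 0.013, against -0.003). As not every pair exceeded 0.1 in any condition, the numbers were not taken as pairs. With a replicate block, 6 members were called in fasted mice and 3 after CL316243, as without it, and no call of a member changed in any comparison.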

Other observations

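Of the 29 genes of related function, 3 were higher and 10 lower in fasted than in fed CTRL livers, and 7 higher and 13 lower in AAKO livers, with median log2 fold changes of -0.078 and -0.473 against -0.046 and -0.095 over all genes, of which 43.8% and 63.6% were called in either direction. Between fasted and CL316243-treated mice 5 were higher and 11 lower in CTRL, and 8 higher and 15 lower in AAKO, against 37.1% and 60.0% of all genes called. The 6 acyl-CoA and sterol carrier proteins had 0 higher and 2 lower in fasted against fed CTRL livers and 1 higher and 4 lower in AAKO. Their interaction of genotype with fasting passed in 5 of 6, 1 above and 4 below 0, against 33.6% of all genes.

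Of the cell type markers, macrophage genes were lower in fasted than in fed livers in 3 of 8 cases in CTRL and 4 of 8 in AAKO, with 0 higher in both. Neutrophil genes were higher in fasted than in fed livers in 5 of 8 cases in AAKO and in 0 of 8 in CTRL, with 0 lower in both. The difference between these counts was not tested. Over all genes 43.8% were called in CTRL and 63.6% in AAKO for this comparison, in either direction. Counted in either direction, the macrophage counts and the AAKO neutrophil count are no higher than these shares. The share of all genes called in a single direction was not computed for this comparison, so the one-sidedness of the counts has no value beside it.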
